A study of Mus musculus with 42 samples.

Results

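The fatty acid elongases and desaturases described here are Elovl1, Elovl2, Elovl3, Elovl5, Elovl6, Fads1, Fads2 and Fads3. They were chosen by name, with earlier results of these data known, as 8 of the 19756 distinct gene names listed in the liver RNA-seq tables. All 8 were listed in each of the 6 tables and all passed the filter on low values. Livers came from 42 male C57BL/6J mice, 7 per group, and each table compared 2 groups. WT lean mice received a lean diet with 10% of kcal from fat, and WT obese mice a high fat diet with 60% of kcal from fat. KO lean and KO obese mice received the same diets and lacked ChemR23 (gene Cmklr1), a receptor for the lipid mediator resolvin E1 (RvE1), in the whole body after CRISPR/Cas9 editing. Mice of these 4 groups were injected intraperitoneally with an ethanol and PBS vehicle. WT obese+RvE1 and KO obese+RvE1 mice had the high fat diet and were given 300 ng RvE1 per injection in place of vehicle. The study began the diets in young mice and gave the injections on consecutive days shortly before harvest. Whole liver was sequenced, so fewer cells of a type and less RNA per cell cannot be told apart.

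Elovl enzymes catalyze the condensation step that lengthens a fatty acyl-CoA by a pair of carbons, and the Fads desaturases introduce double bonds near the carboxyl end of the chain. Elovl6 elongates saturated and monounsaturated chains made by de novo lipogenesis, Elovl1 and Elovl3 act mainly on saturated and monounsaturated very long chains, and Elovl5 and Elovl2 elongate polyunsaturated chains. Fads2 and Fads1 are the delta-6 and delta-5 desaturases, which alternate with elongation to convert essential fatty acids into arachidonic acid, EPA and DHA. EPA is the precursor of RvE1. The function of Fads3 in liver is less well described.

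The genes lie on the GRCm38 (mm10) assembly in the GENCODE M21 annotation as follows. Elovl1 is at chr4:118428093-118432953, Elovl2 at chr13:41182381-41220405, Elovl3 at chr19:46131897-46135694, Elovl5 at chr9:77917364-77984519 and Elovl6 at chr3:129532355-129638495. The 3 Fads genes are neighbours, with Fads3 at chr19:10041569-10060110, Fads2 at chr19:10062765-10101746 and Fads1 at chr19:10182888-10196877. The strand setting used for counting is not given in the sources used here, and the 3' ends of Elovl1 and Elovl3 overlap Cdc20 and Pitx3 on the opposite strand, so reads in those stretches could belong to either gene. Cdc20 lies at chr4:118432901-118437352 and Pitx3 at chr19:46135685-46148326, so the stretches are short and cover only the last bases of Elovl1 and Elovl3. Elovl6 overlaps the antisense gene Gm35986 and, on its own strand, Gm43072, and Fads1 overlaps Mir6993 on its own strand. The strand cannot separate reads of Gm43072 or Mir6993 from those of the gene.

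Because Elovl2, Elovl5 and Elovl6 are the elongases whose values are followed most closely below, the sequence before the start site of each is shown, from RefSeq on GRCm38.p6, 5′ to 3′ on the gene's strand and outside the annotated gene. The windows are chr13:41220406-41220653 on the minus strand for Elovl2, chr9:77917115-77917363 on the plus strand for Elovl5 and chr3:129532136-129532354 on the plus strand for Elovl6. Capitals mark matches, on either strand, to the GC box GGGCGG, the CCAAT box CCAAT and the E-box CACGTG.
Elovl2: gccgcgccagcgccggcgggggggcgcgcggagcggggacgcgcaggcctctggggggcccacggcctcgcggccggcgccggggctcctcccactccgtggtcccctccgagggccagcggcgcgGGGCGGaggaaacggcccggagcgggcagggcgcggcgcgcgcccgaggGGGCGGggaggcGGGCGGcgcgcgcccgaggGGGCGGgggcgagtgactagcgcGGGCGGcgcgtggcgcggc
Elovl5: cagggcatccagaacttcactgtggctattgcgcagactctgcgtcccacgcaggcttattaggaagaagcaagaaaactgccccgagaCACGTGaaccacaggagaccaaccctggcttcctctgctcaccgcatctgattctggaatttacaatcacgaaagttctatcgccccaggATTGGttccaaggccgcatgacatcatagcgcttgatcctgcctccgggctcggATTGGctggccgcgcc
Elovl6: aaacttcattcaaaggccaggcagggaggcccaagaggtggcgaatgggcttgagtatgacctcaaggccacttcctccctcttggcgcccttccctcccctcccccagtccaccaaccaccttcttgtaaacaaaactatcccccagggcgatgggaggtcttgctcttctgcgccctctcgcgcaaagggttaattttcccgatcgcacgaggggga
The GC box occurred in 32.7%, the CCAAT box in 33.8% and the E-box in 6.02% of the 32851 promoter windows of 250 bases. The sterol response element TCACNCCAC, present in 1.05% of them, had no match in these 3 windows. The matches describe the letters in the windows and were not tested as binding sites.

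Cmklr1 was measured first as a check of the genotype labels. In the table of KO lean and WT lean mice its normalized count, the read count divided by the size factor of the library, ranged from 9.72 to 22.6 in KO lean and from 40.8 to 114 in WT lean, with no overlap. In KO obese mice it ranged from 5.08 to 23.2 and in WT obese mice from 33.3 to 102, again with no overlap. The livers of WT obese mouse 6L and KO obese mouse 10R stood apart in 3 of 7 adipocyte markers, Adipoq, Plin1 and Lep, whose values are given with those of the other cell types. The libraries held 15992525 to 43841120 reads on listed genes. Reads per library ranged from 12646 to 63735 for Elovl2, the most deeply counted of the 8 genes by median, and from 123 to 1566 for Fads3, the least.

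Per kilobase of annotated exon, Elovl2 had the highest level in all 4 vehicle groups, with a median of 10572 normalized counts per kb in WT lean and 5077 in WT obese mice. Elovl5 followed, with medians of 8093 and 4023 normalized counts per kb. Elovl2 exceeded Elovl5 in 5 of 7 WT lean mice and in 6 of 7 WT obese mice, so these neighbours overlapped. Elovl3, Fads1 and Fads2 formed the middle of the order in WT lean mice, with medians of 3577, 2944 and 2660 normalized counts per kb, and Elovl3 exceeded Fads1 in 3 of 7 mice. Elovl6, at 1208 normalized counts per kb, stood below them, and Elovl1 and Fads3 were lowest at 207 and 147 normalized counts per kb. In WT obese mice Elovl3, at a median of 866 normalized counts per kb, stood below both Fads1 at 2510 and Fads2 at 1689 normalized counts per kb, and it was below Fads2 in 6 of 7 mice.

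The first comparison asked how diet-induced obesity altered these transcripts in WT mice. Of the 8 genes, 7 were lower in WT obese than in WT lean mice (limma, threshold of 0.1 on the BH-adjusted p-value), and 1, Fads1, did not pass. With the number that opens each mouse identifier as a random block, 5 of the 8 passed, as did 279 of all 14012 genes tested. Without the block, 6.27% of all 14012 genes tested were called and 2.61% were called lower. The median log2 fold change (Log2FC) of the 8 genes was -1.03, against 0.0030 over all genes. In 5 of the 8 genes every WT obese mouse was below every WT lean mouse, a separation found in that direction in 0.564% of genes. The 8 genes were chosen with earlier results of these data known, so these shares describe them and do not test them as a set.

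Among elongases of saturated chains, Elovl3 had the largest difference of the 8 genes. Its normalized counts were 3956, 7064 and 8731 (lowest, median, highest) in WT lean and 1038, 1710 and 2563 in WT obese mice. The groups did not overlap (Log2FC = -1.88, SE 0.21, adjusted p = 0.000291). Elovl6 counted 6208, 6386, 7650, 7771, 8061, 14404 and 18151 in the 7 WT lean mice. It counted 1843, 2064, 2171, 3051, 3773, 4190 and 5538 in the 7 WT obese mice. All WT obese mice were lower, and the pair of highest WT lean values came from the mice identified as 21R and 21L (Log2FC = -1.59, SE 0.28, adjusted p = 0.00503). Elovl1 was modestly lower, with medians of 565 in WT lean and 389 in WT obese mice and no overlap (Log2FC = -0.49, SE 0.09, adjusted p = 0.00848). With libraries scaled to equal read totals Elovl1 no longer passed (Log2FC = -0.43, adjusted p = 0.144).

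The elongases of polyunsaturated chains were both lower. Elovl2 counted 29220, 41929 and 46337 in WT lean and 12507, 20137 and 29123 in WT obese mice. The highest WT obese value lay just below the lowest WT lean value (Log2FC = -1.08, SE 0.18, adjusted p = 0.00339). Elovl5 counted 19117, 28505 and 35311 in WT lean and 8449, 14171 and 17743 in WT obese mice, with no overlap (Log2FC = -0.99, SE 0.18, adjusted p = 0.0062).

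The desaturases overlapped between diets. Fads2 counted 7136, 8766 and 13911 in WT lean and 2755, 5566 and 7834 in WT obese mice. Only 1 WT obese mouse reached the WT lean range (Log2FC = -0.80, SE 0.21, adjusted p = 0.0492). Fads3 counted 460, 558 and 1666 in WT lean and 214, 291 and 554 in WT obese mice, where 5 of 7 mice were below the lowest WT lean mouse (Log2FC = -1.12, SE 0.29, adjusted p = 0.0433). Fads1 had medians of 14165 and 12079 and a Log2FC of -0.66 (SE 0.24, adjusted p = 0.143). It passed with library quality weights (adjusted p = 0.0573) and by DESeq2 (adjusted p = 0.0814), each of which called 8 of the 8 genes lower. Both settings also called more of all 14012 genes, 1605 with the weights and 1367 by DESeq2, against 878 by limma without weights. The meaning of the number that opens each mouse identifier is not stated, and with it as a random block Fads2 and Fads3 did not pass (adjusted p = 0.167 and 0.123), leaving 5 of the 8 genes called. Fads2 also did not pass without the mice of number 6, 21 or 26 (adjusted p = 0.232, 0.179 and 0.105), nor Fads3 without those of number 6 (adjusted p = 0.245), while Fads1 passed without those of number 8 (adjusted p = 0.0973). The Log2FC of Fads1 ranged from -0.88 to -0.34 when mice were left out, with an adjusted p up to 0.521. Apart from 23, each opening number occurred in 1 group, so no diet or genotype difference could be computed within a number.

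**Figure D1:**
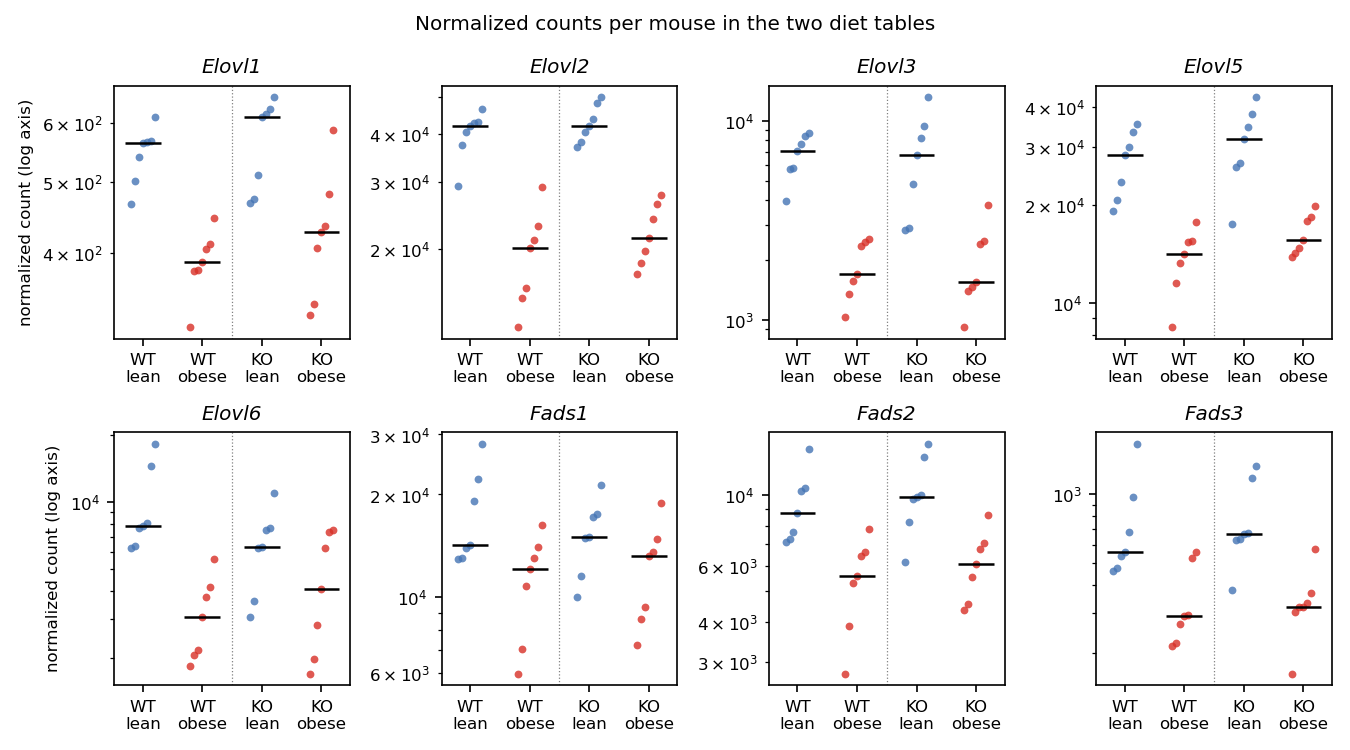
Normalized counts per mouse on log axes in the WT and KO diet tables, 1 point per mouse and 7 mice per group, with lines at the medians. Elovl1, Elovl2, Elovl3, Elovl5 and Elovl6 did not overlap between WT lean and WT obese mice, and among KO mice only Elovl2 did not overlap.

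In KO mice the same diet contrast called 6 of the 8 genes, all lower in KO obese than in KO lean mice. With the mouse number as a block 5 of the 8 passed, as did 1057 of all 14213 genes tested. Without the block, 24.1% of the 14213 genes tested were called and 12.1% were called lower, so the share of all genes that passed was larger here than in WT mice. The median Log2FC of the 8 genes was -0.81, against -0.0021 over all genes. Elovl2 was the 1 gene without overlap, a separation found in that direction in 1.11% of genes. It counted 36967, 42006 and 49801 in KO lean and 17210, 21397 and 27763 in KO obese mice (Log2FC = -0.96, SE 0.14, adjusted p = 0.00202). Elovl3 counted 2842, 6775 and 13116 in KO lean and 925, 1563 and 3775 in KO obese mice, where 6 of 7 mice were below the lowest KO lean mouse (Log2FC = -1.71, SE 0.35, adjusted p = 0.00747). Elovl5 counted 17484, 31858 and 42675 in KO lean and 13850, 15619 and 19891 in KO obese mice. For Elovl5, 4 KO obese mice were below all KO lean mice (Log2FC = -0.89, SE 0.18, adjusted p = 0.00645).

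Fads3, Fads2 and Elovl1 were also lower in KO obese mice. The Log2FC was -1.18 for Fads3 (SE 0.27, adjusted p = 0.0125), -0.72 for Fads2 (SE 0.19, adjusted p = 0.0218) and -0.41 for Elovl1 (SE 0.13, adjusted p = 0.0488). Elovl1 did not pass under equal read totals (adjusted p = 0.393) or with the mouse number as a block (adjusted p = 0.113), nor without the mice of number 9, 14 or 31 (adjusted p = 0.167, 0.153 and 0.362). Fads2 did not pass without those of number 10 (adjusted p = 0.161) and Fads3 without those of number 31 (adjusted p = 0.105). Elovl6 and Fads1 did not pass, with Log2FC values of -0.62 (SE 0.36, adjusted p = 0.246) and -0.36 (SE 0.21, adjusted p = 0.262). Elovl6 counted 3078, 3595, 6198, 6306, 7524, 7642 and 10971 in the KO lean mice. In KO obese mice it counted 1712, 1992 and 2825 in the 3 mice of number 10, 4068 in mouse 23L, and 6248, 7373 and 7518 in the 3 mice of number 31. The 3 mice of number 31 were within the KO lean range, and without them Elovl6 passed (Log2FC = -1.26, adjusted p = 0.066). When other mice were left out its Log2FC reached 0.035, with an adjusted p up to 0.957.

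The diet effect was then compared between genotypes over 28 mice, as the KO difference minus the WT difference. None of the 8 genes passed, and 0.00717% of the 13941 genes tested did (1 gene by limma, with 2554 at an unadjusted p under 0.05). The share depended on the method, since edgeR called 1 gene, DESeq2 930 and library quality weights 2564, with none of the 8 among them. Elovl6 had the largest value at 0.97 on the log2 scale, with a 95% interval of -0.02 to 1.96 (adjusted p = 0.284). When mice were left out the Elovl6 value ranged from 0.33 to 1.63 (adjusted p from 0.136 to 0.788). For Elovl2 the value was 0.12, with an interval of -0.33 to 0.57, and for Elovl5 it was 0.10, with an interval of -0.42 to 0.62. These intervals do not show that the genotypes responded alike.

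The KO lean and WT lean mice asked whether loss of ChemR23 altered the genes without obesity. Elovl6 alone was called, with medians of 8119 in WT lean and 5725 in KO lean mice (Log2FC = -0.79, SE 0.29, adjusted p = 0.0953). This was 1 of 8 genes, against 16.3% of the 13031 genes tested, and 8.3% of genes were called lower. The groups overlapped, and 4 of 7 KO lean mice were below the lowest WT lean mouse. The call was lost with the mouse number as a block (adjusted p = 0.164) and when any of 11 of the 14 mice was left out in turn, for example without WT lean mouse 21L (Log2FC = -0.63, adjusted p = 0.196). Without the mice of number 9 or 21 the Log2FC was -0.45 and -0.46 (adjusted p = 0.341 and 0.334). Fads1 had a Log2FC of -0.38 (adjusted p = 0.245), and for the other 6 genes the Log2FC lay between -0.33 and -0.019. The Kupffer cell markers, those of the resident liver macrophages, were higher in KO lean mice for 7 of 7 genes. Their summed normalized count ranged from 6554 to 13875 in KO lean and from 2693 to 6200 in WT lean mice, with Cd5l the most abundant and no marker at 0 throughout. With the mouse number as a block none of the 7 marker calls remained between lean genotypes (adjusted p from 0.138 to 0.16). In KO obese mice 6 of the 7 markers were lower than in KO lean mice, with sums of 4025 to 5417 against 7223 to 15302, and 5 of the 6 calls remained with the block. Their part in the values of the 8 genes was not tested.

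Genotypes were compared next in obese mice. None of the 8 genes was called between KO obese and WT obese mice, where 0.0141% of the 14162 genes tested passed (2 genes, with 319 at an unadjusted p under 0.05 by limma). The Log2FC ranged from -0.17 for Fads3 to 0.18 for Elovl6. The interval for Elovl6 was -0.56 to 0.93, and that for Elovl2 was -0.36 to 0.40.

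RvE1 was given to obese mice of both genotypes. In WT mice no gene of the 13085 tested (0%) was called by limma (795 had an unadjusted p under 0.05, and edgeR called 1 and DESeq2 called 25), and none of the 8 was among those calls. The Log2FC of the 8 genes lay between -0.51 for Fads3 and 0.37 for Elovl5. Elovl5 counted 9912, 16601 and 20821 in WT obese and 12213, 18770 and 42924 in WT obese+RvE1 mice, and the groups overlapped. Among KO mice no gene of the 14207 tested (0%) was called by limma (1179 had an unadjusted p under 0.05, edgeR called 0 and DESeq2 called 17), again with none of the 8. Elovl6 had the largest difference, with a Log2FC of -1.14 and a 95% interval of -1.97 to -0.30 (adjusted p = 0.557). Its counts were 989, 1006, 1254, 1550, 2608, 2881 and 4007 in KO obese+RvE1 mice, with a median of 4100 in KO obese mice of the same table. The 4 lowest were below every KO obese mouse. Without the 3 KO obese mice of number 10 Elovl6 passed (Log2FC = -1.79, adjusted p = 0.073), and without the 3 of number 31 the Log2FC was -0.50 (adjusted p = 1.00). The difference between genotypes in the RvE1 effect was -0.77 for Elovl6, with an interval of -1.92 to 0.37, and no gene of the 13075 tested passed (0%, with 312 at an unadjusted p under 0.05 by limma and 0 called by edgeR and by DESeq2). When mice were left out this Elovl6 difference ranged from -1.60 to -0.14.

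**Figure D2:**
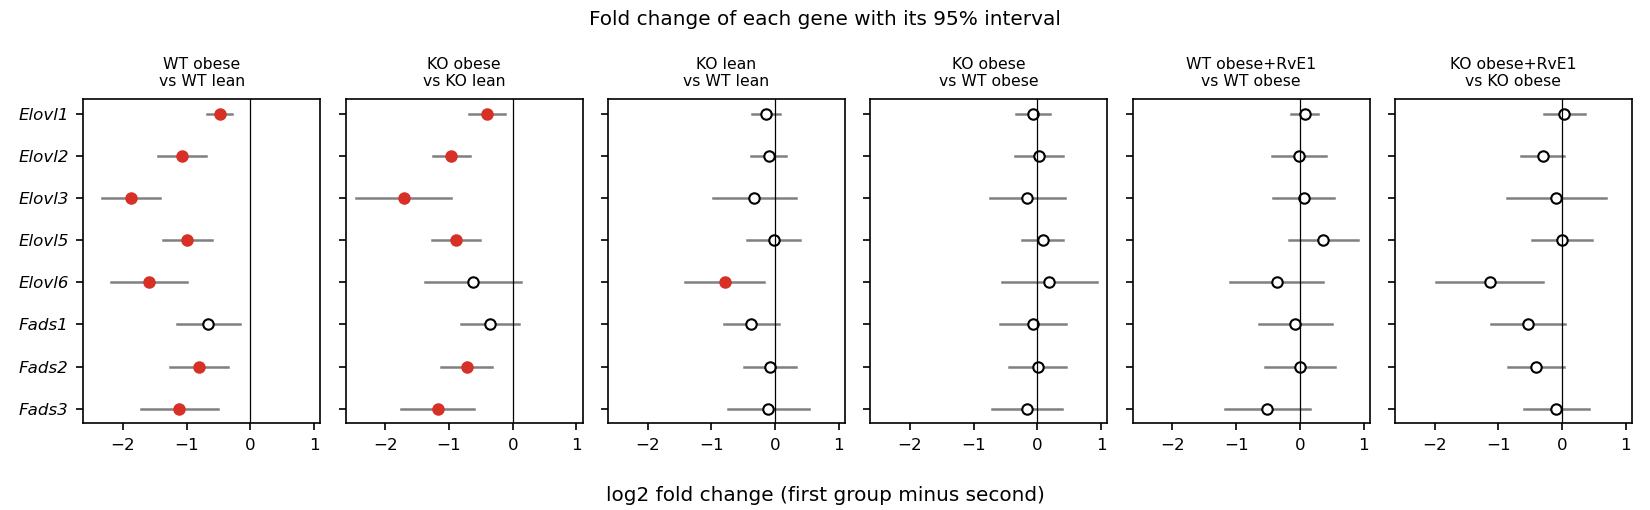
Log2 fold change of each gene (first group minus second) with its 95% interval from limma in the 6 comparisons, 7 mice per group. Filled points passed the threshold of 0.1 on the adjusted p-value, which were 7 genes for diet in WT mice, 6 for diet in KO mice, Elovl6 between lean genotypes and none in the other comparisons.

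Within groups the genes did not vary as 1 set. Over the 28 mice of the diet tables, after each group's mean was removed, Fads1 and Fads2 had the highest correlation (r = 0.95). Fads1 correlated with Elovl6 (r = 0.84) and with Elovl2 (r = 0.75), and Fads2 with Elovl6 (r = 0.75). Elovl1, Elovl3, Elovl5 and Fads3 had r between -0.55 and 0.47 to each other gene of the 8. These values describe libraries that share depth and handling, and mice of the same number. Fads1 had Fads2, Papss2 and Por as its 3 most similar genes among 10731 (r = 0.95, 0.93 and 0.88). Por encodes the cytochrome P450 oxidoreductase. For Fads2 they were Fads1, Cyb5r3 and Cpn1, and Cyb5r3 encodes the NADH-cytochrome b5 reductase (r = 0.86). For Elovl6 they were Papss2, Ppp1r3b and Fads1 (r = 0.86, 0.85 and 0.84). Elovl2 was most like Hiat1, Vdac1 and Serpinc1 (r = 0.86, 0.86 and 0.84), and Elovl5 most like Tmem135, Abcb8 and Dlst (r = 0.84, 0.73 and 0.72). Elovl1 was most like Nudt18, Fkbp1a and Tpm1 (r = 0.89, 0.80 and 0.80). For Elovl3 they were Tmed5, Itih5 and Pitx3 (r = 0.75, 0.73 and 0.72), of which Pitx3 is the gene that overlaps its 3' end. Fads3 had the weakest, Sort1, Nostrin and Tbcel (r = 0.69, 0.69 and 0.68).

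**Figure D3:**
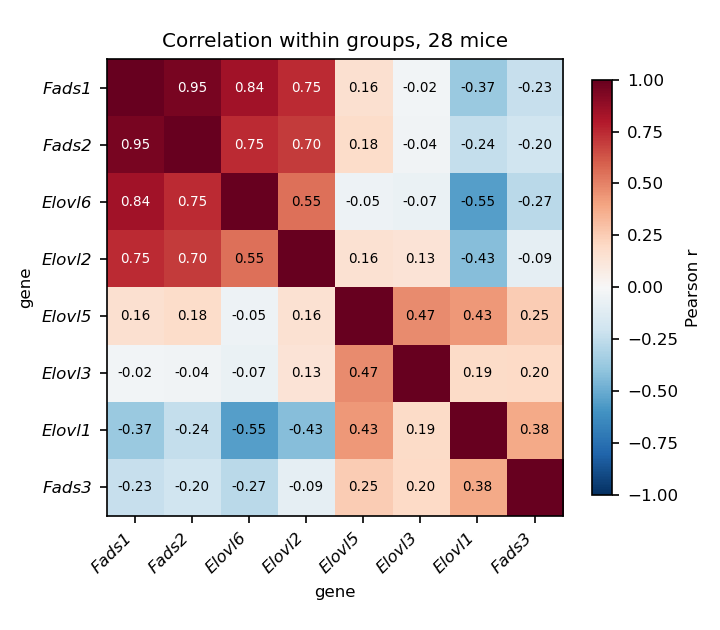
Pearson r between genes over 28 mice (4 groups of 7) of log2 normalized counts after removing group means, with colour from -1 to 1. Fads1, Fads2, Elovl6 and Elovl2 form the block of high values, up to 0.95, while Elovl1, Elovl3, Elovl5 and Fads3 lie outside it.

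The other genes of the pathway were examined beside the 8. Scd1, the stearoyl-CoA desaturase that makes monounsaturated chains, counted 618356, 843672 and 1111680 in WT lean and 78122, 153509 and 284206 in WT obese mice. The groups did not overlap (Log2FC = -2.39, SE 0.30, adjusted p = 0.000688). In KO mice the Log2FC of Scd1 was -2.25 (SE 0.43, adjusted p = 0.00591). Of 8 other elongases and desaturases tested, 3 were lower in WT obese (Scd1, Scd3, Scd4) and 3 in KO obese mice (Scd1, Scd4, Degs1), none higher. With the mouse number as a block the 3 in WT mice passed, and in KO mice Scd1 passed while Scd4 and Degs1 did not (adjusted p = 0.151 and 0.149). Fads6 and Elovl7, which share family names with the 8 genes, were not called for diet. Fads6 had a Log2FC of -0.0072 in WT (adjusted p = 0.984) and 0.016 in KO mice (adjusted p = 0.952). Elovl7, at low counts, had a Log2FC of -0.56 in WT (adjusted p = 0.455) and 0.64 in KO mice (adjusted p = 0.327). Scd3 had the smallest adjusted p for diet in WT mice (Log2FC = -2.64, adjusted p = 0.000116). In KO lean against WT lean mice 3 of these other genes were lower, Scd2, Scd3 and Scd4. Scd3 led them (Log2FC = -1.31, adjusted p = 0.0509, and 0.146 with the block), and none of the 3 passed with the block. The partners that complete each elongation round were mostly not called, with 0 of 6 in WT mice and 1 of 6 in KO mice. That gene was Tecr, the trans-2-enoyl-CoA reductase (Log2FC = -0.41, adjusted p = 0.0592), and it did not pass with the block (adjusted p = 0.182).

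Of 7 genes of de novo lipogenesis, 3 were lower in WT obese mice, led by Me1, the cytosolic malic enzyme (Log2FC = -0.66, adjusted p = 0.023), the 1 of the 3 that passed with the block (adjusted p = 0.0953). Among KO mice 1 was lower with obesity, Slc25a1, the mitochondrial citrate carrier (Log2FC = -0.40, adjusted p = 0.0983, and 0.245 with the block). Fasn, the fatty acid synthase, had a Log2FC of -0.40 in WT (adjusted p = 0.445) and 0.76 in KO mice (adjusted p = 0.206). Between lean genotypes 2 were lower in KO mice, Acaca (Log2FC = -0.91, adjusted p = 0.0302), an acetyl-CoA carboxylase, and Fasn (Log2FC = -1.25, adjusted p = 0.0357). Neither passed with the block (adjusted p = 0.138 for each). Of the 23 genes called between lean genotypes over all lists examined here, Elovl6 and the cell type markers included, 0 passed with it. Srebf1 encodes the SREBP-1 factors that drive lipogenic transcription. It was higher in WT obese mice (Log2FC = 0.96, SE 0.27, adjusted p = 0.0628), a call lost with the block (adjusted p = 0.161). In KO obese mice its Log2FC was 0.67 (adjusted p = 0.154). Of 11 lipogenic regulators, 1 was higher and 1 lower in WT obese mice, the latter Insig2, which retains the SREBP complex in the endoplasmic reticulum (Log2FC = -0.96, adjusted p = 0.0496, and 0.18 with the block). In KO obese mice 1 was higher, Mlxipl (ChREBP; Log2FC = 0.55, adjusted p = 0.0247), and 2 were lower, led by its partner Mlx (Log2FC = -0.46, adjusted p = 0.0183). Of these 3, Mlxipl passed with the block (adjusted p = 0.0778) and Mlx did not (adjusted p = 0.101). In KO lean against WT lean mice Mlx was higher (Log2FC = 0.36, adjusted p = 0.0656), and 2 were lower, led by Mlxipl (Log2FC = -0.48, adjusted p = 0.0661), none of which passed with the block.

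**Figure D4:**
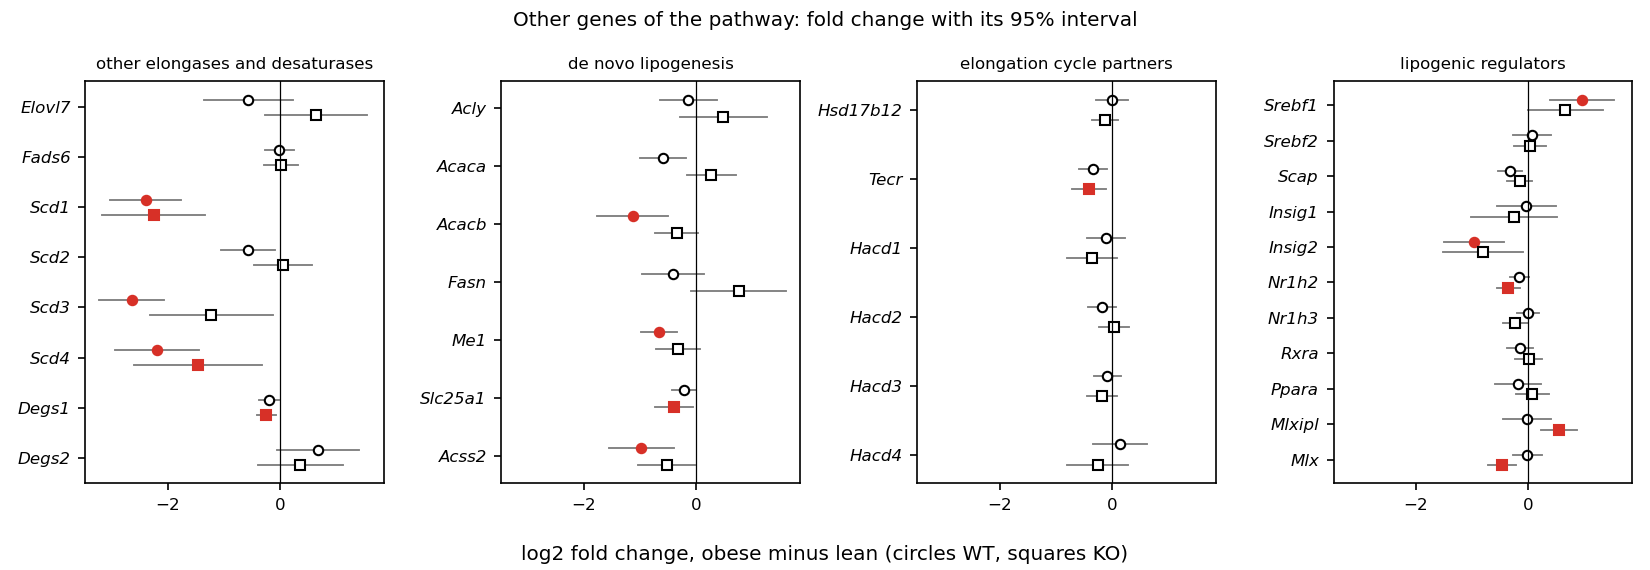
Log2 fold change (obese minus lean) with 95% interval for other genes of the pathway, circles for WT and squares for KO mice, 7 per group. Filled symbols passed the threshold of 0.1 on the adjusted p-value, and Scd1 lies near -2.39 in WT and -2.25 in KO mice while Srebf1 lies at 0.96 and 0.67.

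Genes of acyl-CoA synthesis and phospholipid acylation had 2 of 9 lower in WT obese mice and 1 of 9 in KO obese mice. Acsl5, an acyl-CoA synthetase, led both (Log2FC = -0.60 and -0.33, adjusted p = 0.0332 and 0.0491). Between lean genotypes 2 of 9 were lower in KO mice, Acsl3 and Acsl5, the latter with a Log2FC of -0.41 (adjusted p = 0.0577). None of these calls passed with the block (for Acsl5 adjusted p = 0.14 in WT, 0.14 in KO and 0.16 between lean genotypes). Of 9 genes of peroxisomal chain shortening none was called in WT mice. The KO obese mice had 2 higher, led by Scp2 (Log2FC = 0.41, adjusted p = 0.0683), and in KO lean mice 1 was, Acaa1a (Log2FC = 0.31, adjusted p = 0.0901). With the block these 3 were lost (adjusted p = 0.184 for Scp2 and 0.193 for Acaa1a). The core clock had 4 of 16 genes higher and 2 lower in WT obese mice, led by Per3 (Log2FC = 1.48, adjusted p = 0.00284) and Clock (Log2FC = -0.70, adjusted p = 0.0146), and these were the 2 of 6 that passed with the block. The KO obese mice had 4 higher, led by Hlf (Log2FC = 0.72, adjusted p = 0.00255), and 1 was lower, Npas2 (Log2FC = -1.47, adjusted p = 0.0901), which alone of the 5 did not pass with the block (adjusted p = 0.135). Nfil3 was the 1 clock gene called between lean genotypes (Log2FC = -1.01, adjusted p = 0.0615, and 0.146 with the block). Nr1d1 and Arntl were not called for diet in either genotype, with Arntl at a Log2FC of -1.33 in WT mice (adjusted p = 0.109) and Nr1d1 at -0.78 (adjusted p = 0.397). The part of the clock genes in the values of the 8 genes was not tested.

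Markers of liver cell types were summed in each mouse. Hepatocyte markers, with Alb the most abundant, ranged from 1116320 to 1665460 in WT lean and from 911212 to 1592630 in WT obese mice, and 0 of 8 were called. In KO mice the sums ranged from 1189190 to 1724670 in lean and from 1189800 to 1848870 in obese mice. There 1 of 8 was called, Cyp2e1, a cytochrome P450, which was higher in KO obese mice (Log2FC = 0.55, adjusted p = 0.0635, and 0.156 with the block). Ms4a1, a B cell gene, was lower in KO obese mice and passed with the block (Log2FC = -1.68, adjusted p = 0.0134, and 0.0528 with the block).

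Of 6 sinusoidal endothelial markers, 2 were lower in KO obese mice, Clec4g (Log2FC = -0.73, adjusted p = 0.0425) and Kdr (Log2FC = -0.44, adjusted p = 0.0766). In WT obese mice 1 was, Dnase1l3 (Log2FC = -0.74, adjusted p = 0.0287). The endothelial sums overlapped between diets, at 2476 to 3908 in WT lean, 1907 to 3157 in WT obese, 3359 to 4863 in KO lean and 2218 to 4382 in KO obese mice. Of 7 stellate cell markers, Hgf was lower in WT obese mice (Log2FC = -0.66, adjusted p = 0.046) and none was called in KO mice. None of these endothelial and stellate calls passed with the block (adjusted p from 0.121 for Dnase1l3 to 0.189 for Kdr). Cholangiocyte markers had 0 of 5 called for diet in either genotype, and no Kupffer cell marker was called for diet in WT mice. No hepatocyte, endothelial, stellate or cholangiocyte marker was at 0 throughout in the diet tables. Between lean genotypes Ms4a1 was higher in KO mice (Log2FC = 1.09, adjusted p = 0.0683), and Krt19 of the cholangiocyte markers (Log2FC = -0.62, adjusted p = 0.0745) and Reln of the stellate cell markers (Log2FC = -0.49, adjusted p = 0.0932) were lower. These were lost with the block (adjusted p = 0.161, 0.185 and 0.189). The part of these cell types in the values of the 8 genes was not tested.

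Of the 7 adipocyte markers, 2 were listed in the diet tables, Cfd and Adrb3. Their sum was 91.3 to 202 in WT lean and 254 to 698 in WT obese mice, with no overlap, and 83.1 to 236 in KO lean and 120 to 1917 in KO obese mice, with overlap. Cfd, which encodes adipsin, was higher in WT obese mice (Log2FC = 4.34, adjusted p = 1.76e-05) and in KO obese mice (Log2FC = 3.01, adjusted p = 0.0328), and the KO call was lost with the block (adjusted p = 0.101). In the table of obese genotypes all 7 were listed. Adipoq, which encodes adiponectin, was 32.3 in WT obese mouse 6L and 17.6 in KO obese mouse 10R, and at most 2.14 in each of the other 12 mice. In the same 2 mice Plin1 was 28.4 and 13.0 and Lep 52.9 and 31.3, against at most 1.69 for either gene elsewhere. The other 4 markers did not set both mice apart. Mouse 6L had the lowest Cfd and Adrb3 of the 7 WT obese mice (134 and 147), with Adig at 0 and the highest Retn (2.94). Mouse 10R had Cfd at 338 and Adrb3 at 110, each within the range of the other KO obese mice, with Adig at 0.76 and Retn at 0. Without mouse 6L 7 of the 8 genes were called for diet in WT mice, and without mouse 10R 6 of the 8 in KO mice.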

How the data were processed

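The authors aligned liver RNA-seq reads to mm10 with Bowtie2, counted them with featureCounts and deposited, per table of 2 groups, a signal: counts divided by DESeq2 size factors. Tool versions, the annotation and the strandedness option were not given in the sources used here. The deposited log2 fold changes and p-values were not used. Values in each of the 84 library columns were whole reads within 0.1 of a read (100% of values), so reads were recovered and were identical between tables. The 19756 gene names were matched to GENCODE M21 (98.6%).

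Log2(normalized count + 1) was fitted with limma 3.58.1 (R 4.3.3, trend) within each table for genes with a mean of at least 5, with Benjamini-Hochberg adjustment over all genes tested, called below 0.1. Differences between genotypes were fitted over 28 libraries, each effect formed in its own table. Alternatives were other pseudocounts (0.5 and 4), no filter, TMM and equal-total scaling, a length and GC correction, library weights, a block by the number opening the mouse identifier, stricter thresholds, edgeR 4.0.16, DESeq2 1.42.0 and leaving out mice. The fits were tested on simulated data. Fold changes are on the log2(value + 1) scale. No library repeated another. p-values measure the spread between mice, which were treated as independent except with the block. Each group held few opening numbers, most of them shared by several mice. The correlation within a number estimated for the block was 0.26 for diet in WT mice, 0.24 in KO mice and 0.22 between lean genotypes.

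The members and lists were chosen with earlier results of these data known. All 8 members are named. From each list the counts are given with the called gene of smallest adjusted p in each direction, in the diet comparisons and between lean genotypes. Between lean genotypes, lists with no call are not named. Kupffer cell markers are given as counts and sums. Scd1, Srebf1, Fasn, Nr1d1, Arntl, Fads6 and Elovl7 are given in addition. Older symbols in the files were matched through RefSeq synonyms. Counts and sums of the lymphocyte markers are not reported here.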

Additional observations from a re-analysis of the deposited data

Results flagged for a closer look

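Single mice that stood apart were sought on normalized counts without log2, in 48 sets of 7 values (8 genes in 6 groups). In 3 sets the gap from 1 mouse to the next, divided by the set's range, exceeded the limit at the 5% level. About 2.4 sets would do so by chance if counts without log2 were normally distributed. In all 3 the mouse was the highest of its group. Whether these mice stand apart on the log2 scale used for the fits was not tested. Fads2 in KO obese+RvE1 mouse 23-2L was 9191 normalized counts, with the next highest at 5237 and a group median of 4079. Fads3 in WT lean mouse 8R was 1666, with the next at 969 and a median of 558. Fads3 in WT obese+RvE1 mouse 30RL was 723, with the next at 326 and a median of 263.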

How the results depend on the processing

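Leaving out any 1 mouse left the 7 genes called for diet in WT mice and the 6 in KO mice at 7 and 6. Leaving out all mice of 1 opening number gave 5 to 8 and 5 to 6. The Elovl6 call between lean genotypes was fragile. The count of 1 became 0 at an adjusted p under 0.05, 0 with the length and GC correction, 0 with the mouse number as a block and 2 with library quality weights, and it ranged from 0 to 2 when mice were left out. For RvE1 in KO mice it ranged from 0 to 1. The cause was not tested.

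The block lowered the genes called from 878 to 279 for diet in WT mice, from 3422 to 1057 in KO mice and from 2123 to 3 between lean genotypes. DESeq2 called 1367 for diet in WT mice, and 930 against 1 for the difference in diet effect. Library quality weights called 1605 for diet in WT mice, 5737 in KO mice, 4297 between lean genotypes and 2564 for the difference in diet effect. An adjusted p under 0.05 called 462, 2064, 718 and 0, and adding a fold change above 1.5 left 532, 1476 and 866 for the first 3. Equal read totals moved the median of all genes by 0.14 for diet in KO mice and by -0.12 between lean genotypes. There the split of higher and lower calls became 2555 and 628 against 1704 and 1718, and 392 and 1753 against 1042 and 1081. Equal read totals called 510 genes for diet in WT mice.

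No paired analysis was possible because the groups compared share at most 1 opening number (23, in KO obese and KO obese+RvE1 mice), which the labels do not describe as a pairing. Log2 differences that changed sign were all of genes not called. In KO lean vs WT lean, Elovl3 was 0.056 with library quality weights. Elovl5 was 0.18 with library quality weights, 0.018 with the mouse number as a random block, 0.0028 with DESeq2. Fads3 was 0.24 with library quality weights. In KO obese vs WT obese, Elovl2 was -0.020 with equal read totals, -0.010 with the length and GC correction, -0.019 with edgeR, -0.013 with DESeq2. Fads2 was -0.034 with equal read totals, -0.075 with library quality weights, -0.0025 with the mouse number as a random block, -0.037 with edgeR, -0.031 with DESeq2. Fads3 was 0.012 with library quality weights. In WT obese+RvE1 vs WT obese, Elovl2 was 0.013 with the length and GC correction, 0.0026 with the mouse number as a random block. Elovl3 was -0.082 with library quality weights. Fads2 was -0.0028 with TMM scaling, -0.025 with the length and GC correction, -0.13 with library quality weights. In KO obese+RvE1 vs KO obese, Elovl1 was -0.0051 with the length and GC correction. Elovl3 was 0.21 with library quality weights. Elovl5 was 0.0074 with TMM scaling, 0.070 with equal read totals, 0.058 with the length and GC correction, 0.014 with the mouse number as a random block, 0.11 with edgeR, 0.10 with DESeq2. In diet by genotype, Elovl3 was -0.28 with library quality weights. Elovl5 was -0.13 with library quality weights. Fads3 was 0.024 with equal read totals. In RvE1 by genotype, Elovl1 was 0.037 with equal read totals. Elovl3 was 0.30 with library quality weights. When mice were left out, differences of genes not called also changed sign. In KO obese vs KO lean the ranges were -1.26 to 0.035 for Elovl6, -0.63 to 0.0024 for Fads1. In KO lean vs WT lean the ranges were -0.22 to 0.010 for Elovl1, -0.68 to 0.28 for Elovl3, -0.19 to 0.27 for Elovl5, -0.32 to 0.11 for Fads2, -0.42 to 0.24 for Fads3. In KO obese vs WT obese the ranges were -0.25 to 0.12 for Elovl1, -0.19 to 0.20 for Elovl2, -0.46 to 0.20 for Elovl3, -0.027 to 0.20 for Elovl5, -0.45 to 0.83 for Elovl6, -0.39 to 0.28 for Fads1, -0.31 to 0.24 for Fads2, -0.39 to 0.084 for Fads3. In WT obese+RvE1 vs WT obese the ranges were -0.044 to 0.16 for Elovl1, -0.28 to 0.35 for Elovl2, -0.29 to 0.53 for Elovl3, -0.089 to 0.98 for Elovl5, -0.99 to 0.46 for Elovl6, -0.51 to 0.52 for Fads1, -0.38 to 0.52 for Fads2, -0.96 to 0.092 for Fads3. In KO obese+RvE1 vs KO obese the ranges were -0.15 to 0.21 for Elovl1, -0.31 to 0.14 for Elovl3, -0.28 to 0.22 for Elovl5, -0.33 to 0.10 for Fads3. In diet by genotype the ranges were -0.10 to 0.26 for Elovl1, -0.092 to 0.30 for Elovl2, -0.44 to 0.53 for Elovl3, -0.18 to 0.27 for Elovl5, -0.017 to 0.66 for Fads1, -0.23 to 0.33 for Fads2, -0.42 to 0.25 for Fads3. In RvE1 by genotype the ranges were -0.22 to 0.14 for Elovl1, -0.62 to 0.20 for Elovl3, -0.99 to 0.085 for Elovl5, -0.18 to 0.87 for Fads3.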
